A study of Mus musculus with 12 samples.

Results

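Neutrophils carry their weapons in granules that are filled in sequence as the cell matures, and 10 genes of that programme were followed here across the femurs of mice with and without the homeobox gene Dlx3. The members were chosen by symbol: 4 genes of the primary granules (Elane, Mpo, Prtn3 and Ctsg), 4 of the secondary granules (Ltf, Camp, Ngp and Lcn2) and 2 abundant cytosolic genes of late stages (S100a8 and S100a9). All 10 were found in both expression tables, among the 18335 gene symbols that the tables share, each as 1 RefSeq transcript.

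Messenger RNA was sequenced from 2 parts of the femur of 5-week-old male mice of mixed background: the diaphysis, which is the shaft, and the metaphysis, the flared end beside the growth plate. In each part, wild-type mice (WT) were compared with mice labelled Dlx3Oc-cKO (cKO below), which carry a conditional deletion of Dlx3. Each of the 4 groups had 3 libraries, 12 in all. The labels do not say which cells express the recombinase beyond the letters of the name, do not state what alleles the WT mice carry, and do not say whether libraries came from separate mice, so a p-value speaks of the spread over these libraries only, which may be technical. Values are RPKM, mapped reads scaled to transcript length and library total, which allows levels of different genes to be compared per length.

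Primary granules form at the promyelocyte stage and hold myeloperoxidase and serine proteases, while secondary granules form in myelocytes and metamyelocytes and hold lactoferrin, cathelicidin and lipocalin-2. Transcription of the early genes is known to depend on Myb, PU.1 and C/EBP alpha, and that of the late genes on C/EBP epsilon. Bone marrow holds all of these stages, and the femur samples were bulk tissue with marrow in them, so fewer cells of a type and less RNA per cell cannot be told apart.

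The sequence just upstream of 6 members, 2 of each class, is shown first. Whether these sequences bear on the expression values described further on was not tested. Each window is the 250 bases before the RefSeq start, from the RefSeq promoter table of build GRCm38.p6, read 5′ to 3′ on the gene's strand and placed by exact match in NCBIM37 (mm9). Capitals mark matches to a C/EBP motif (TTGCNNAA or TTNNGCAA) and to a PU.1 motif (AGGAAG or CTTCCT). For Elane (chr10:79348807-79349056, plus strand), Ctsg (chr14:56721412-56721661, minus strand), Ltf (chr9:110921546-110921795, plus strand), Camp (chr9:109751971-109752220, minus strand), S100a8 (chr3:90472743-90472992, plus strand) and S100a9 (chr3:90499644-90499893, minus strand) the window ends at the annotated gene start. The windows of the other 4 members reach into the gene as annotated on NCBIM37, with 250 of 250 bases for Prtn3, 203 for Mpo and 58 each for Ngp and Lcn2, and are not printed.
Elane: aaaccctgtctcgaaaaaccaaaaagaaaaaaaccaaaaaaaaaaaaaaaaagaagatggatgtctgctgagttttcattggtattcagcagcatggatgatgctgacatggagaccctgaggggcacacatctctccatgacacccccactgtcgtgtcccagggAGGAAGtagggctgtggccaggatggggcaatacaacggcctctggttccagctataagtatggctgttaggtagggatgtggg
Ctsg: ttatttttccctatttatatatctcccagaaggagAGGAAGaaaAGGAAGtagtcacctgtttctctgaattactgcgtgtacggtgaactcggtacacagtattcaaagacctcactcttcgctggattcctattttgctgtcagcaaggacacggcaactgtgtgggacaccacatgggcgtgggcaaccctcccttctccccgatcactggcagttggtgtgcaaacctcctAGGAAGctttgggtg
Ltf: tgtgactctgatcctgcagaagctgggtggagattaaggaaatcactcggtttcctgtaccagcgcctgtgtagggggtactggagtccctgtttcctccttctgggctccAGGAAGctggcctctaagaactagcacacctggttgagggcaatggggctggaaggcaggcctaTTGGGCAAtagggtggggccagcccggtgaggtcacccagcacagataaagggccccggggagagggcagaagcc
Camp: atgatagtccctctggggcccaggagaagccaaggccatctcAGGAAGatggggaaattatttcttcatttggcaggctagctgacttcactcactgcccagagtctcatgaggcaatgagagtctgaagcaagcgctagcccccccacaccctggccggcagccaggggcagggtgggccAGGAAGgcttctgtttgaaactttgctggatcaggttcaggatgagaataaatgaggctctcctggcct
S100a8: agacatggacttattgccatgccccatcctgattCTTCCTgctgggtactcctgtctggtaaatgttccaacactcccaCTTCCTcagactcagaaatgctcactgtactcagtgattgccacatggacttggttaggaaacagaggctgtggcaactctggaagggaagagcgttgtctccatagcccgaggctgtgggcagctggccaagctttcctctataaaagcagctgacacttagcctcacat
S100a9: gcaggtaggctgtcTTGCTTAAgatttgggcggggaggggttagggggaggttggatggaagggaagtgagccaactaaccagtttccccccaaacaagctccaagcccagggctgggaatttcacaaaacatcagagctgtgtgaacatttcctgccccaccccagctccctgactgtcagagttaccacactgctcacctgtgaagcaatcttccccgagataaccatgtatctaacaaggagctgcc

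A C/EBP match was found in 0 of the 4 primary windows, in 3 of the 4 secondary windows and in 1 of the 2 late windows, where 9.56% of all 27018 promoter windows of the same length held 1. Ltf had TTGGGCAA at -75 to -68, counted from -1 at the base before the start, Lcn2 had TTGCTCAA at -216 to -209, and S100a9 had TTGCTTAA at -236 to -229. Ngp had a pair of matches, TTGCCCAA at -138 to -131 and TTGGGCAA at -11 to -4. The PU.1 motif was in 4 of 4 primary, 3 of 4 secondary and 1 of 2 late windows, against 29.2% of all windows. Over the 6 printed windows alone, a C/EBP match was in 0 of 2 primary, 1 of 2 secondary and 1 of 2 late windows, and a PU.1 match in 2, 2 and 1. A Myb motif (TAACNG or CNGTTA, 19.8% of all windows) was found in Elane and Mpo, and the letters TATAAA or TTTATA (12.97%) in Ctsg and S100a8. Both strands were searched, and no match in a member overlapped another. A match is not a measured binding site, and a window without a match says only that these letters are absent from it.

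On build NCBIM37 several members are neighbours. Prtn3 (chromosome 10, 79337221 to 79345919) ends 3.14 kb before Elane (79349057 to 79350961), and S100a8 and S100a9 lie 22.6 kb apart on chromosome 3. Camp, Ngp and Ltf lie in that order on chromosome 9, with 570.3 kb between Camp and Ngp and 596 kb between Ngp and Ltf. Mpo shares chromosome 11 with the deleted gene, 7.36 Mb away from Dlx3. Ctsg is on chromosome 14 and Lcn2 on chromosome 2.

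Some facts of the libraries bear on every value below. Depth worked out from the lowest values was 18.5 to 54.0 M (M, mega) reads for diaphysis libraries and 24.5 to 34.7 M for metaphysis libraries, and the least covered member value, Ctsg in diaphysis cKO replicate 1, rested on about 1560 reads. The depth is the smallest total that gave nearly the most whole reads, and for 5 libraries a multiple of it, 4 times for diaphysis cKO replicate 1 and 2 times for 4 others, gave slightly more, so the order of the depths is uncertain. Dlx3 was 8.37 to 10.1 RPKM in metaphysis WT libraries and 1.98 to 3.24 in cKO, and 3.22 to 13.1 against 0.763 to 1.55 in the diaphysis, so no library went against its label. The diaphysis library WT replicate 1 stood apart, with 32.6% of its summed RPKM from globin (15.1% to 26.5% in the other 5) and 4690.2 RPKM summed over 13 osteoblast and osteocyte markers (11469.7 to 27407 in the other 5). The eosinophil, basophil and mast cell markers of diaphysis cKO replicate 1 summed to 288 RPKM against 720.2 to 1312 in the other 5. The members together took 1.91% to 3.28% of the summed RPKM of a library.

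Neutrophil granule transcripts were abundant in every sample. By mean RPKM, S100a9 stood 7th and 8th among all symbols of the diaphysis and the metaphysis, S100a8 stood 10th and 9th, Ngp 15th and 12th, and Camp 22nd and 19th. Ctsg, the lowest member, was 537th and 637th. In WT diaphysis the order of the means fell from S100a9 (5055 ± 1102 RPKM, SD, n = 3) through S100a8, Ngp, Camp, Lcn2, Ltf, Mpo, Elane and Prtn3 to Ctsg (88.4 ± 26.6, n = 3). Neighbours whose 3 libraries did not overlap there were S100a9 and S100a8, Camp and Lcn2, and Ltf and Mpo, and all other neighbours overlapped. In the metaphysis Mpo stood below Elane in both genotypes.

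Of the primary granule genes, Elane encodes neutrophil elastase, a serine protease that is active against bacterial proteins and matrix. In the diaphysis Elane was 339.9, 278 and 174 RPKM in WT replicates 1 to 3 and 292, 284 and 278 in cKO replicates 1 to 3. Metaphysis libraries had 346, 207 and 247 in WT and 302, 195 and 181 in cKO. The cKO libraries of the diaphysis lay close together inside a wide WT range, and the genotypes overlapped in both regions.

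Mpo encodes myeloperoxidase, which makes hypochlorous acid in the phagosome. Its RPKM in the diaphysis was 361, 363 and 245 in WT and 241, 388 and 315 in cKO. In the metaphysis it was lower, at 249, 175 and 196 in WT and 226, 149.8 and 169 in cKO. Both genotypes covered nearly the same range within each region.

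Prtn3 encodes proteinase 3, a protease close to elastase. Diaphysis values were 189, 157 and 86.9 RPKM in WT and 185, 163 and 149.6 in cKO. Metaphysis values were 207, 144 and 161 in WT and 225, 138 and 131 in cKO, where the highest and the lowest library were both cKO libraries.

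Ctsg encodes cathepsin G, the third of the granule serine proteases among the members. Ctsg was 114, 89.4 and 61.2 RPKM in diaphysis WT and 84.3, 90.8 and 84.1 in diaphysis cKO. In the metaphysis it was 98.9, 78.7 and 87.7 in WT and 84.5, 50.6 and 58.6 in cKO. There, cKO replicates 2 and 3 lay below all WT libraries, and cKO replicate 1 lay inside the WT range. In the metaphysis cKO replicates 2 and 3 also lay below all WT libraries for Elane, Mpo and Prtn3.

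Among the secondary granule genes, Ltf encodes lactoferrin, which binds iron. It was 597, 502 and 376 RPKM in diaphysis WT and 406, 409 and 469 in diaphysis cKO. The metaphysis gave 595, 390.0 and 343 in WT and 372, 425 and 289 in cKO. A single WT library, replicate 1, lay well above the rest in the metaphysis.

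Camp encodes the precursor of the cathelicidin antimicrobial peptide. Its values were 1406, 967 and 690.1 RPKM in diaphysis WT and 1321, 853 and 919 in diaphysis cKO. In the metaphysis they were 1827, 1196 and 1005 in WT and 1101, 1407 and 852 in cKO. In the diaphysis replicate 1 of each genotype was above the other libraries.

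Ngp encodes neutrophilic granule protein. The diaphysis values were 1772, 1707 and 1267 RPKM in WT and 1171, 1471 and 1618 in cKO. The metaphysis values were 2465, 1553 and 1584 in WT and 1489, 2119 and 1560.2 in cKO. Both the highest and the second highest metaphysis library, WT replicate 1 and cKO replicate 2, lay far above the other 4.

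Lcn2 encodes lipocalin-2, which binds bacterial siderophores. It was 609, 515 and 381 RPKM in diaphysis WT and 369.8, 420.1 and 520.3 in diaphysis cKO. Metaphysis values were 754, 493 and 497 in WT and 514, 681 and 451 in cKO. Its order over the libraries was much like that of Ngp.

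S100a8 and S100a9 encode the subunits of calprotectin, a calcium- and zinc-binding protein that fills the neutrophil cytosol. S100a8 was 2804, 2220.4 and 1561 RPKM in diaphysis WT, 1753, 1819 and 2138 in diaphysis cKO, 3195, 2429 and 1928 in metaphysis WT, and 2226, 2346 and 1734 in metaphysis cKO. S100a9 was 5949, 5393 and 3825 RPKM in diaphysis WT and 3030.4, 4532 and 5171 in diaphysis cKO. In the metaphysis S100a9 was 4163, 2622 and 2242 in WT and 2657, 3417 and 2252 in cKO. In both regions the highest library of 9 of the 10 members was WT replicate 1, with Mpo in the diaphysis (cKO replicate 2) and Prtn3 in the metaphysis (cKO replicate 1) as the exceptions.

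**Figure D1:**
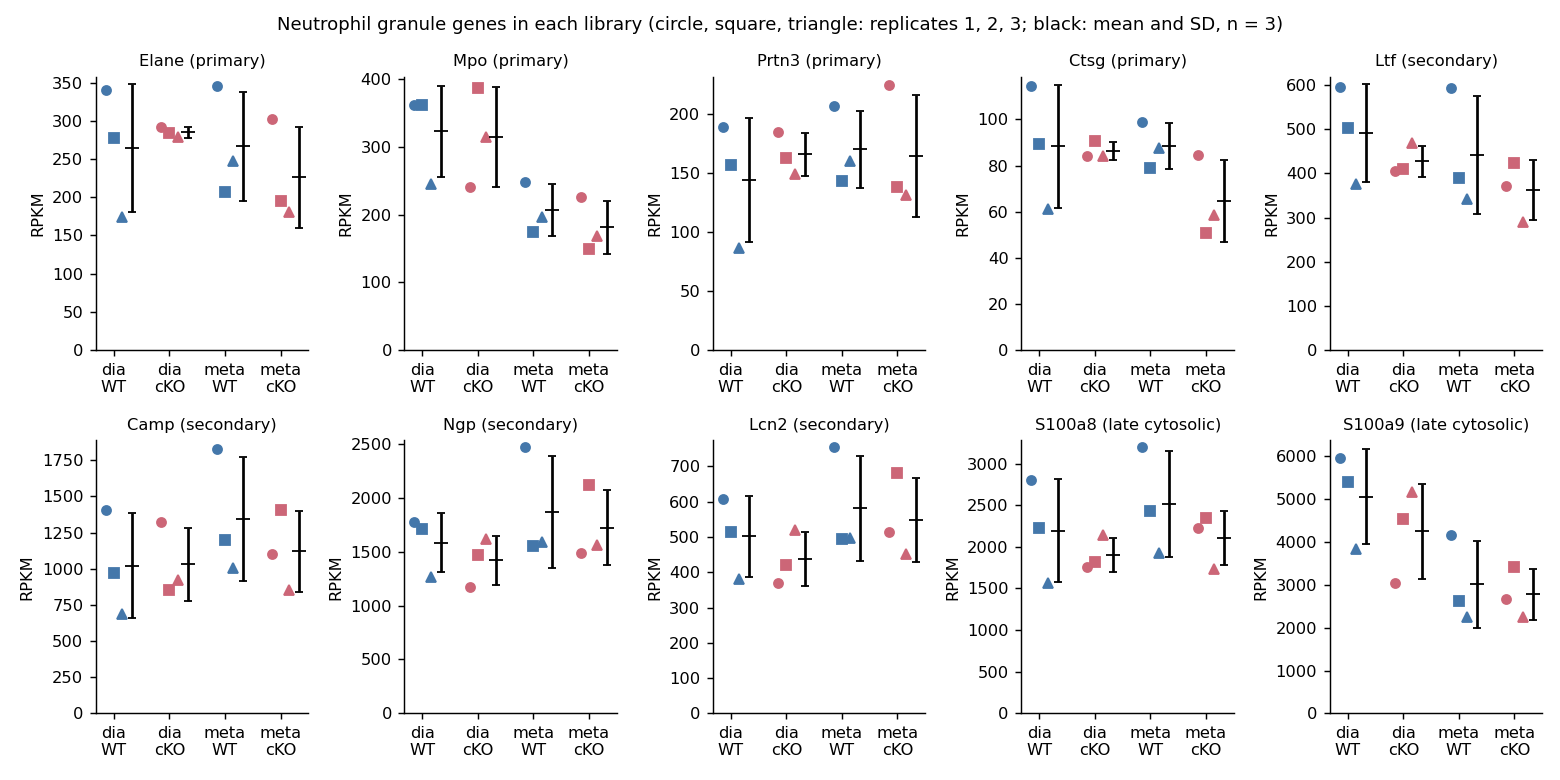
RPKM (vertical axes from 0) of the 10 granule genes in each library of the 4 groups, with blue points for WT, red points for cKO, marker shapes for replicates 1 to 3 and black bars for the mean and SD of 3 libraries. In every panel the WT and cKO libraries of a region overlap, and in each region WT replicate 1 is the highest library for 9 of the 10 genes.

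The first comparison asked whether loss of Dlx3 went with a change in the granule genes of the metaphysis. No member passed the threshold: limma called 0 of 10 at an adjusted p of 0.05, while 11.4% of all 12641 genes tested were called. All 10 estimates were below 0, as were 54.9% of all genes, with a median of -0.22 on the log2 scale against -0.04 over all genes. The genotypes overlapped for all 10 members, while they did not overlap for 37.1% of all genes. At an unadjusted p under 0.05 there was 1 member, Ctsg, where 30.6% of all genes passed.

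Ctsg had the largest estimate in the metaphysis, a log2 difference of -0.48 ± 0.19 (SE, limma, adjusted p = 0.140, unadjusted 0.0384), with a 95% interval from -0.93 to -0.03. Without metaphysis cKO replicate 1, its estimate was -0.69 and it passed the threshold (limma, adjusted p = 0.0333). Ltf followed at -0.27 ± 0.23 (limma, adjusted p = 0.468), Camp at -0.25 ± 0.26 (limma, adjusted p = 0.561), Elane at -0.24 ± 0.25 (limma, adjusted p = 0.542) and S100a8 at -0.24 ± 0.21 (limma, adjusted p = 0.473). Mpo, Ngp, S100a9, Prtn3 and Lcn2 were between -0.19 and -0.08. Without metaphysis WT replicate 1, Ctsg was at -0.40 (limma, adjusted p = 0.304). In that fit S100a8, Mpo, Elane, Ltf and Camp were between -0.05 and -0.0002. Prtn3, Ngp, Lcn2 and S100a9 were then above 0, at 0.07, 0.12, 0.13 and 0.17. With all libraries, the 95% intervals of the 9 members other than Ctsg were also read as fold changes of RPKM + 0.1. They ran from as low as 0.552 (Camp) to as high as 1.43 (S100a9). Each interval gives the changes that the values of that gene allow, not the smallest change that 3 libraries a group could detect.

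In the diaphysis the granule genes gave no difference between genotypes either, with 0 of 10 members called by limma and 0 at an unadjusted p under 0.05. The background there was 0% of 12540 genes called and 0.686% at an unadjusted p under 0.05, so the diaphysis calls carry no information on the members in particular. The genotypes overlapped for all 10 members, while they separated for 3.03% of all genes. Estimates ran from -0.26 ± 0.35 for S100a9 to 0.27 ± 0.29 for Prtn3 (SE, limma, adjusted p = 1.00 for both), 6 of 10 being below 0 against 49.3% of all genes. The 95% interval of S100a9 was the widest on the log2 scale, from -1.08 to 0.56, which is 0.473 to 1.47 fold. That of Prtn3 reached 1.92 fold at its upper end. Without WT replicate 1, the library that stood apart, the estimates of Prtn3, Elane and Camp were 0.50, 0.37 and 0.31, against 0.27, 0.16 and 0.05 with it. Without cKO replicate 1 they were 0.19, 0.15 and -0.15, and that of S100a9 was -0.04.

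Whether the genotype difference itself differed between the regions was tested as a contrast in a limma fit of all 12 libraries. It called 0 of 10 members, against 0% of 12321 genes, and 0 members passed an unadjusted p under 0.05, against 4.02% of genes. The contrast (diaphysis minus metaphysis) was largest for Ctsg at 0.49 ± 0.32 (SE, limma, adjusted p = 0.908), then for Elane at 0.41 ± 0.38 and Prtn3 at 0.35 ± 0.40 (limma, adjusted p = 0.910 for both). It was lowest for S100a9 at -0.18 ± 0.43 (limma, adjusted p = 0.948).

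**Figure D2:**
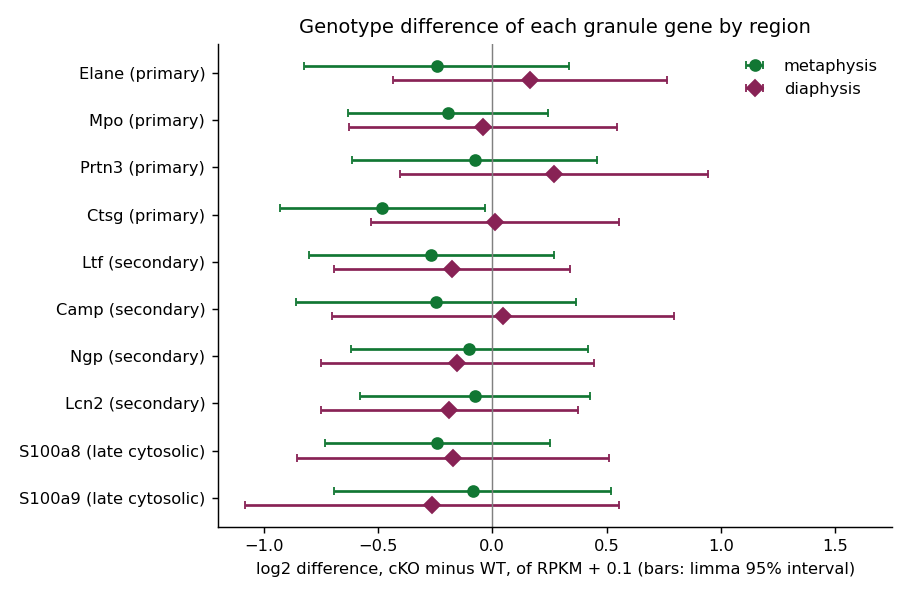
Log2 difference of cKO minus WT for each granule gene (horizontal axis, on RPKM + 0.1) in the metaphysis (green circles) and the diaphysis (purple diamonds), with bars for the 95% interval from limma. Every interval includes 0 except that of Ctsg in the metaphysis, from -0.93 to -0.03, whose adjusted p was 0.140.

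The balance of early to late granule genes was then set out per library. Secondary genes were always above primary genes: the geometric mean RPKM of Ltf, Camp, Ngp and Lcn2 over that of Elane, Mpo, Prtn3 and Ctsg was 4.29, 4.17 and 4.85 in diaphysis WT and 3.81, 3.39 and 4.26 in diaphysis cKO. In the metaphysis it was 5.82, 5.43 and 4.46 in WT and 3.94, 8.05 and 5.21 in cKO. The lowest and the highest metaphysis ratio were both from cKO libraries.

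On the log2 scale the primary minus secondary level was higher in cKO than in WT of the diaphysis by 0.22 (pooled SD 0.14, n = 3 per group), with overlapping libraries. In the metaphysis it differed by -0.08 (pooled SD 0.39). Because the members were chosen with earlier results in view, no p is given for these scores. Leaving out 1 library moved the metaphysis value across 0: it was -0.32 without cKO replicate 1, 0.20 without cKO replicate 2 and 0.03 without WT replicate 3.

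Metaphysis cKO replicates 1 and 2 departed from each other in opposite ways. Replicate 2 had the lowest primary level of the metaphysis, 534 RPKM summed over the 4 genes, together with the second highest secondary sum, 4631 RPKM. Replicate 1 had the second highest primary sum, 837 RPKM, and a secondary sum of 3476 RPKM that lay below that of WT replicates 1 and 2. Primary genes made up 4.88% of the members' summed RPKM in cKO replicate 2 and 9.10% in cKO replicate 1, against 6.48% to 8.34% in the WT metaphysis. The same cKO replicate 2 had the lowest sums of the region for 13 proliferation markers, 450.1 RPKM against 663 and 704 in the other cKO libraries and 928 to 979 in WT, and for erythroid markers, 34537 RPKM against 35763 to 52503 in the other 5. For 12 skeletal muscle markers cKO replicate 2 had the highest sum of the region, 12275 RPKM. The other cKO libraries had 3847 and 3103 RPKM, and WT libraries 7157 to 10597. The part of these markers in the balance of the granule genes was not tested.

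**Figure D3:**
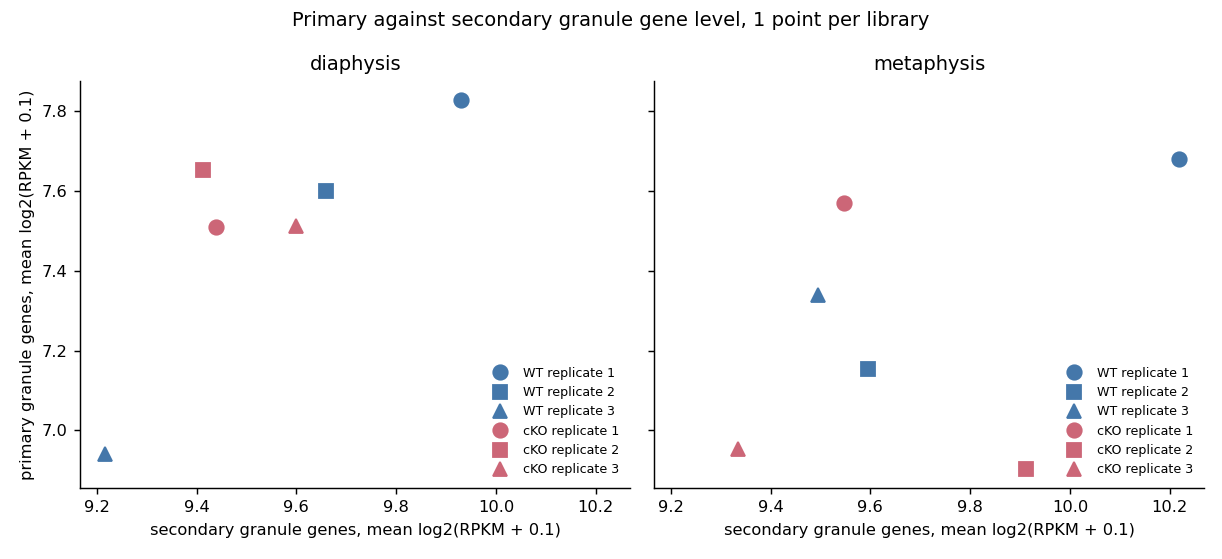
Mean log2(RPKM + 0.1) of the 4 primary granule genes (vertical axis) against that of the 4 secondary granule genes (horizontal axis), 1 point per library, with WT in blue, cKO in red and marker shapes for replicates 1 to 3. In the diaphysis the WT libraries rise along both axes, while in the metaphysis cKO replicate 2 combines a secondary mean of 9.91 with the lowest primary mean, 6.90.

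Genes of the same class went up and down together over the libraries. Over the 12 libraries, with each gene centred on its region's mean, the 6 primary pairs had a Pearson r from 0.65 to 0.95, with a median of 0.79, and 5 of 6 passed a permutation test within regions (100000 resamples, Benjamini-Hochberg over all 45 pairs). The 15 pairs among the 6 secondary and late genes had r from 0.52 to 0.97, with a median of 0.86, and 12 of 15 passed. The 24 pairs of a primary with a secondary or late gene had r from 0.23 to 0.69, with a median of 0.51, and 2 of 24 passed. With Spearman's rho, 4, 11 and 0 pairs passed. Genes of 1 library share its total and its scaling, which can shift every r. The difference between the kinds of pair was not tested. Pairs of other genes were not put through the test, so the counts that passed have no background share. The members were chosen with earlier results in view, so each p describes these pairs only.

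The closest primary pair was Elane and Prtn3, the neighbours on chromosome 10, with r = 0.95 and rho = 0.97 (n = 12, permutation adjusted p = 0.00109 and 0.00157). Leaving out the 2 libraries farthest from the median of Elane, diaphysis WT replicate 3 and metaphysis WT replicate 1, r was 0.96. Mpo with Prtn3 was the weakest primary pair by r, at r = 0.65 and rho = 0.66 (n = 12, permutation adjusted p = 0.0535 and 0.0652). Without diaphysis WT replicate 3 and diaphysis cKO replicate 1 its r was 0.86. By rho the weakest was Elane with Mpo, at 0.64 (n = 12, permutation adjusted p = 0.0803). The r of Elane with Mpo was 0.62 without diaphysis WT replicate 3 and metaphysis WT replicate 1.

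Ltf and S100a8 formed the closest later pair, with r = 0.97 and rho = 0.97 (n = 12, permutation adjusted p = 0.0009 and 0.00157), and r = 0.95 without the 2 farthest libraries. Ngp with Lcn2 had r = 0.95 and rho = 0.86 (n = 12, permutation adjusted p = 0.00109 and 0.0123). Camp was the loosest member of the later group: with Ngp it had r = 0.57 and rho = 0.48 (n = 12, permutation adjusted p = 0.115 and 0.193), and r = 0.17 without diaphysis WT replicate 1 and metaphysis WT replicate 1. Within the metaphysis Camp and Ngp had r = 0.88, and within the diaphysis r = 0.19.

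Both pairs across classes that passed, Elane with Camp (r = 0.68, rho = 0.65) and Elane with S100a8 (r = 0.69, rho = 0.60), did so narrowly (n = 12, permutation adjusted p = 0.0492 for each r, and 0.0803 and 0.116 for rho). Without diaphysis WT replicate 3 and metaphysis WT replicate 1 their r was 0.40 and 0.44, so they rest on those libraries. Every pair of Elane with a later gene fell on leaving these out. Every such pair of Ctsg rose without diaphysis WT replicate 3 and metaphysis cKO replicate 2, from 0.27 to 0.63 before to 0.55 to 0.79 after. With the 2 farthest libraries of each pair left out, the median r across classes was 0.43 (0.01 to 0.79). That of primary pairs was 0.82 and that of later pairs 0.75. Within the regions, the median r of pairs across classes was 0.66 in the diaphysis and 0.39 in the metaphysis, against 0.79 and 0.90 for primary pairs and 0.86 and 0.94 for later pairs. Split by genotype and centred on the group means, the median across classes was 0.87 over the 6 WT libraries and -0.05 over the 6 cKO libraries, while primary pairs had 0.96 and 0.81 and later pairs 0.97 and 0.75. With 6 libraries each this difference between genotypes was not tested and is given as a description.

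**Figure D4:**
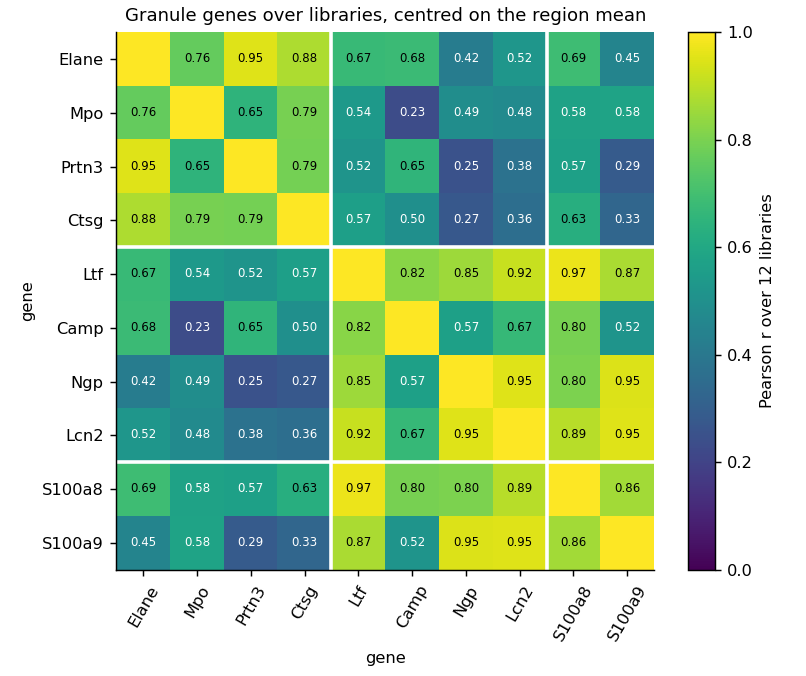
Pearson r between each pair of granule genes over 12 libraries, with each gene centred on its region's mean (colour scale from 0 to 1, the value in each cell), and white lines between the primary, secondary and late genes. The blocks within the primary genes and within the secondary and late genes hold r from 0.52 to 0.97, and the block across them holds 0.23 to 0.69.

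Ratios of genes within a library do not depend on its scaling, and several were steady. Lcn2 over Ngp stayed between 0.285 and 0.345 in all 12 libraries. S100a8 over S100a9 was 0.471, 0.412 and 0.408 in diaphysis WT and 0.578, 0.401 and 0.413 in diaphysis cKO, but 0.686 to 0.927 in the metaphysis, with no overlap between the regions. Ltf over Ngp ran from 0.278 to 0.347 in diaphysis libraries and from 0.185 to 0.251 in those of the metaphysis, also with no overlap. Mpo over Elane ran from 0.824 to 1.41 in diaphysis libraries and from 0.720 to 0.935 in metaphysis libraries, where only diaphysis cKO replicate 1 reached into the metaphysis range. The tables of the 2 regions were made separately and carry different run stamps in their headers, so region and table cannot be told apart.

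Camp over Ngp was 0.794, 0.567 and 0.544 in diaphysis WT and 1.13, 0.580 and 0.568 in diaphysis cKO, so that replicate 1 of each genotype stood above the other 4. Camp has the shorter transcript, 601 bases against 1217 for Ngp. Across all genes, the log2 level changed per doubling of transcript length by -0.04 in diaphysis WT replicate 1 and by -0.09 in cKO replicate 1, and by -0.01 to 0.10 in the other 4, relative to the region's mean. The part of this trend in the Camp ratio was not tested.

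Between genotypes, the libraries of a region did not overlap for 2 of 14 such ratio comparisons. Single genes did not overlap for 37.1% of all genes in the metaphysis and 3.03% in the diaphysis. Ratios of other genes were not compared. Prtn3 over Elane in the metaphysis was 0.599 to 0.696 in WT and 0.708 to 0.743 in cKO, and Ctsg over Elane in the diaphysis was 0.322 to 0.352 in WT and 0.288 to 0.319 in cKO. With 3 against 3 libraries the exact permutation test (2-sided) cannot go below p = 0.1, so neither can reach the threshold. That p is also the share of comparisons expected to separate if genotype made no difference.

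**Figure D5:**
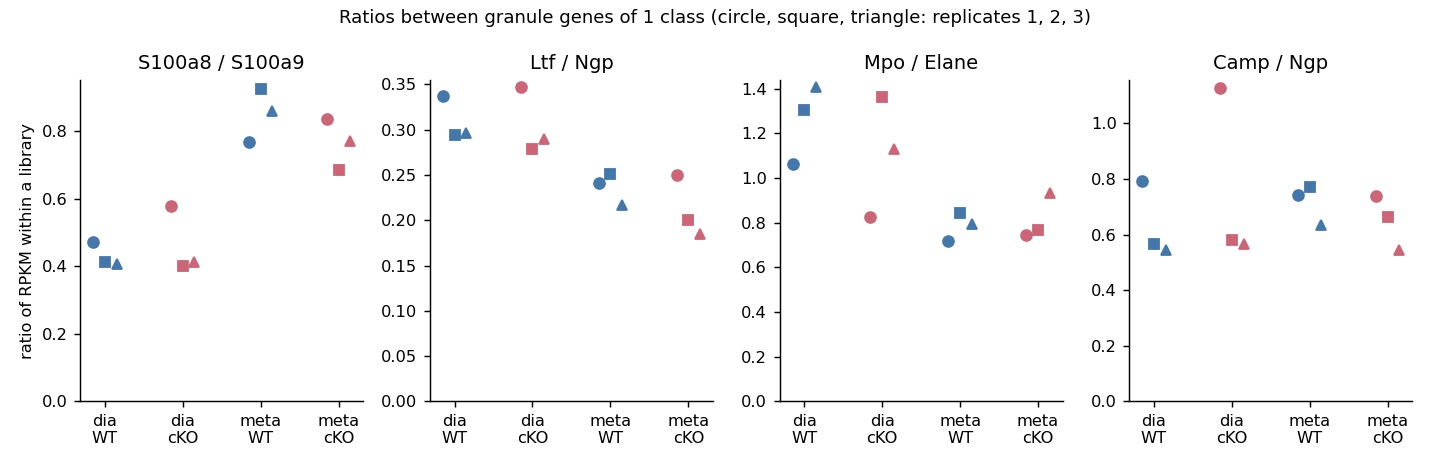
Ratio of RPKM of 2 genes within each library (vertical axes from 0) for S100a8 over S100a9, Ltf over Ngp, Mpo over Elane and Camp over Ngp, with WT in blue, cKO in red and marker shapes for replicates 1 to 3. The first 2 ratios separate diaphysis from metaphysis (0.401 to 0.578 against 0.686 to 0.927, and 0.278 to 0.347 against 0.185 to 0.251), and no ratio shown separates the genotypes.

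Levels in the 2 regions were not tested against each other, for the same reason. In WT the metaphysis mean was 0.595 of the diaphysis mean for S100a9 and 0.640 for Mpo, and 0.90 to 1.32 for the other 8 members, with overlapping libraries for all 10. The background of genes whose WT libraries did not overlap was 11.5% with the metaphysis higher and 12.1% with the diaphysis higher. In cKO, Mpo was the only member that did not overlap, at 181 ± 39.4 RPKM in the metaphysis and 314 ± 73.4 in the diaphysis (SD, n = 3), against a background of 17.8% of genes with the diaphysis higher and 18.7% with the metaphysis higher.

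Genes outside the member list that followed the classes most closely were found by Pearson r with the class mean over 12 libraries, among 11439 genes, and are a description only. Ms4a3, a membrane gene of early granulocytes, followed the primary genes with r = 0.99, before Adap1 (0.95), Prodh, Abcc4, Abca7, Cdc42se1, Paox and Srgn (0.92 to 0.90). Ms4a3 had mean levels of 48.2 RPKM in the diaphysis and 49.7 in the metaphysis. Nearest to the secondary genes were Mgst1 (0.96), Sepx1, Adpgk, Lin28a and Cxcr2 (0.95 to 0.94), then Mmp8, a collagenase of secondary and tertiary granules, Pglyrp1, a bactericidal peptidoglycan-binding protein, and Rtn3 (0.92 to 0.91). Cxcr2, the receptor by which mature neutrophils leave the marrow, averaged 18.2 RPKM in the diaphysis and 14.1 in the metaphysis.

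The rest of the granule programme was read from lists of other neutrophil genes in the metaphysis, where 3.89% of all genes were called lower and 7.51% higher. Of 11 kept early myeloid and primary granule genes outside the members, 1 was higher, 0 were lower and the median was -0.23. The gene that rose was Hexa, a lysosomal hexosaminidase that most cells make, from 144 ± 12.3 to 231 ± 11.5 RPKM (SD, n = 3, limma adjusted p = 0.0121). At an unadjusted p under 0.05 there were 4 of the 11, all higher in cKO and without overlap: Hexa, Cd63, Gusb and Ctsc. Over all genes, 30.6% passed an unadjusted p under 0.05 and 37.1% did not overlap. Serpinb1a of the same list also did not overlap but was lower in cKO. It was 62.8 ± 12.8 RPKM in WT and 49.5 ± 8.87 in cKO (SD, n = 3, limma adjusted p = 0.252). Gusb, Ctsc and Serpinb1a are named after their values were seen. Cd63, a tetraspanin of granule and lysosome membranes, was 403 ± 13.6 RPKM in WT and 523 ± 42.9 in cKO (SD, n = 3, limma adjusted p = 0.0504). Gusb, a lysosomal glucuronidase, was at a log2 difference of 0.47 (limma, adjusted p = 0.0519) and Ctsc, which activates the granule serine proteases, at 0.29 (limma, adjusted p = 0.109). Lower in the mean without passing, Srgn, the proteoglycan that packs granule proteins, was 175 ± 35.1 in WT and 141 ± 18.7 in cKO, and lysozyme Lyz2, which has the near-identical copy Lyz1, was 1187 ± 326 and 994 ± 162.

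Of 17 other secondary and tertiary granule genes, 1 was higher and 1 lower, with a median of -0.26. Mmp9, a gelatinase of tertiary granules that osteoclasts also make in quantity, rose from 374 ± 84.8 to 705 ± 74.3 RPKM (SD, n = 3, limma adjusted p = 0.0238). Olfm4, which marks a subset of neutrophils, fell from 13.2 ± 2.41 to 6.55 ± 1.799 RPKM (SD, n = 3, limma adjusted p = 0.0299). Chi3l3, Anxa1 and Pglyrp1, the most abundant others, were at log2 differences of -0.26, -0.27 and -0.33 without passing.

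Of 18 kept genes of mature neutrophils 0 were called (median -0.31), among them Retnlg at 612 ± 273 RPKM in WT and 585 ± 195 in cKO. The same held for 6 subunits of the NADPH oxidase (median -0.14) and for 8 kept inhibitors of granule proteases (median -0.04). At an unadjusted p under 0.05, limma gave 2 genes of mature neutrophils, 0 oxidase subunits and 1 inhibitor (Cst3) in the metaphysis. Over all genes of the metaphysis, 30.6% passed an unadjusted p under 0.05, and of the diaphysis 0.686%. In the diaphysis limma called 0 genes of any list at the adjusted threshold, and at an unadjusted p under 0.05 it gave Olfm4 of the 17 other secondary and tertiary granule genes, 2 of 13 osteoblast and osteocyte markers and 0 in the other lists. Stfa1 and other stefin genes are near-identical copies whose reads may be split.

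Among 12 transcription factors of granulocytes, Klf4 rose from 13.4 ± 0.948 to 19.4 ± 2.20 RPKM (SD, n = 3, limma adjusted p = 0.0292) and Myb fell from 46.5 ± 8.46 to 29.8 ± 3.03 RPKM (SD, n = 3, limma adjusted p = 0.0387). Myb is active in dividing progenitors of all blood lineages. The other 10 did not pass, with Cebpe, the factor of the secondary granule stage, at 21.8 ± 10.3 RPKM in WT and 16.2 ± 2.75 in cKO, and Sfpi1, which encodes PU.1, at 59.9 ± 15.7 and 65.3 ± 2.74. When libraries were left out in turn, Hexa was called in 4 of 6 fits, Mmp9 in 3, Olfm4 in 2, Klf4 in 1 and Myb in 0. Leaving out WT replicate 1 or cKO replicate 3 removed all 5 calls.

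Markers of other cells moved with genotype in the metaphysis while the granule members did not pass. Of 12 erythroid markers 5 were lower in cKO (median -0.81), of 13 B lymphoid markers 8 were lower (median -0.67), of 13 proliferation markers 5 were lower (median -0.67), and of 13 osteoblast and osteocyte markers 6 were higher (median 0.78). The erythroid and the proliferation calls fell to 0 without any 1 of WT replicates 1, 2 and 3 or cKO replicate 3. The B lymphoid calls were 1, 3, 5 and 2 without those libraries, and the osteoblast calls stayed between 4 and 6 of 13. Summed RPKM of the erythroid list was 46229 to 52503 in WT and 34537 to 44540 in cKO, that of the B lymphoid list 455 to 568 and 296 to 354, and that of the osteoblast list 14596 to 19042 and 23214 to 24605, each without overlap. Summed over the 10 members it was 8291 to 13899.7 in WT and 7677 to 10928 in cKO, which overlap. A larger share of one tissue lowers the RPKM of the rest, and the part of this in the members' estimates was not tested. Of 14 monocyte and macrophage markers, Csf1r and Cd68 were higher and Vcam1 lower (median -0.14), and of 12 skeletal muscle markers Myh1 was lower (median -0.68). These 4 calls were each lost without WT replicate 1, WT replicate 2 or cKO replicate 3, that of Vcam1 also without WT replicate 3 or cKO replicate 2 and that of Myh1 also without cKO replicate 1. Without cKO replicate 2, 11 of the 12 muscle markers were called lower.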

How the data were processed

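Libraries were made from total RNA with the TruSeq RNA kit, per the labels' protocols. Unless counting used strand, which the sources used here do not say, a gene and an antisense partner cannot be told apart. For each region the authors deposited a table of RPKM values, a row being a RefSeq transcript and a column a library, per the file headers. Build mm9 and the tools Partek 6.6, Bowtie 0.12.7.0, CASAVA 1.8.2 and TopHat 1.3.2 come from the submitters' processing notes, which give no role for them. How reads were filtered or shared among transcripts is not given in the sources used here. RPKM corrects for length and depth but not for composition.

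Groups came from the labels, and replicates were numbered in the order of their records. Depth was estimated from steps in the lowest values. These came out whole to 0.1 read for 71.0% to 75.5% (20% by chance), too few to rebuild counts. Transcripts of a symbol were added up. A gene was kept in a region if 3 of its 6 libraries reached 1 RPKM. Each region was fitted on log2(RPKM + 0.1), a scale that understates the change of low genes, using limma 3.58.1 in R 4.3.3 with moderated variances that follow the mean, 2-sided, with Benjamini-Hochberg adjustment over all genes and a threshold of 0.05. The fit was tested on simulated data. The tables were made separately, so only differences between genotypes were tested across them. A library's class level is the mean log2 value of the class. Summaries used Python 3.11.15 with pandas 2.3.3 and numpy 2.4.6, and figures matplotlib 3.10.9.

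The members and all gene lists were chosen with earlier results of these data known. Named genes were the 10 members and, of each other list, any gene past the threshold and otherwise at most the 4 with the highest mean RPKM, plus the 8 genes nearest to each class by Pearson r. Epx, Gusb, Ctsc and Serpinb1a were also named, outside this rule. Where Lyz1 and Lyz2 or stefin and Ear genes are near-identical, their split is uncertain. Alternatives covered the pseudocount, the filter, scaling, transcript choice, the trend, a shared fit, each library left out and, chosen after seeing the data, removal of a trend on transcript length.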

Additional observations from a re-analysis of the deposited data

How the results depend on the processing

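The count of members called in the metaphysis was 0 in the 10 alternative settings that kept all libraries and 0 to 1 when libraries were left out in turn, the 1 being Ctsg without cKO replicate 1. It was 0 under every alternative run in the diaphysis, where 0 of all genes were called in each, and for the difference between regions. Over all members and alternatives, 299 of 320 estimates kept their direction and their side of the threshold, 1 passed (Ctsg) and 20 turned direction, 18 of them with a library left out. Leaving out 1 library gave log2 differences in the metaphysis from -0.32 to 0.0706 for Prtn3, -0.26 to 0.12 for Ngp, -0.24 to 0.13 for Lcn2 and -0.27 to 0.17 for S100a9. In the diaphysis it gave -0.11 to 0.37 for Elane, -0.23 to 0.14 for Mpo, -0.0593 to 0.50 for Prtn3, -0.23 to 0.22 for Ctsg, -0.21 to 0.31 for Camp and -0.40 to 0.0264 for S100a8. With the trend on transcript length removed, chosen after seeing the data, the diaphysis estimates of Ctsg and Camp were -0.0353 and -0.0242. The cause of these turns was not tested. The genotype differences of the primary minus secondary level stayed within 1 pooled SD of the reported value in each alternative, and ran from 0.14 to 0.30 (diaphysis) and from -0.32 to 0.20 (metaphysis) with a library left out.

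Counts over all genes depended on the setting. The 1441 genes called in the metaphysis were 789 without a filter, 7 with 12 libraries in 1 fit, 188, 243 and 672 without WT replicates 1, 2 and 3, and 105 without cKO replicate 3. Without diaphysis WT replicate 1, 247 genes and 0 members differed between regions. No paired analysis was possible because the labels give the groups no shared replicate numbers. With 3 libraries a group and the spread of the members over them, modest differences of the members may have been missed. The estimated depth was no limit for these abundant genes.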

Other observations

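Eosinophils are a sister lineage whose granules hold major basic protein and a peroxidase. Of 10 kept markers of eosinophils, basophils and mast cells, 3 were lower and 0 higher in cKO than in WT of the metaphysis, with a median log2 difference of -0.56, against 3.89% of all genes lower. Prg2, which encodes major basic protein, was 248 ± 52.8 RPKM in WT and 116 ± 38.2 in cKO (SD, n = 3, limma adjusted p = 0.0308). Prg3, its close relative, was 14.9 ± 1.01 and 7.33 ± 2.42 RPKM (SD, n = 3, limma adjusted p = 0.0266), and Ear1, an eosinophil ribonuclease with near-identical family members, was 26.0 ± 6.49 and 10.7 ± 3.45 RPKM (SD, n = 3, limma adjusted p = 0.0250). Epx, eosinophil peroxidase, was at -0.88 ± 0.26 without passing (SE, limma, adjusted p = 0.0668). Ear2 and Ear6, with higher mean RPKM than Epx, did not pass either. They were at log2 differences of -0.22 and -0.72 (limma, adjusted p = 0.445 and 0.133). Each of the 3 calls was lost without WT replicate 1, WT replicate 2 or cKO replicate 3, that of Prg2 also without cKO replicate 2 and that of Prg3 also without WT replicate 3. The summed RPKM of all 13 measured markers, kept or not, was 303 to 445 in WT and 159 to 258 in cKO, without overlap. The sums of the 10 neutrophil members overlapped, and the difference between the lineages was not tested. In the diaphysis the 13 measured markers summed to 720.2 to 974 RPKM in WT and to 288 to 1312 in cKO. There limma called 0 of the 12 kept markers, with 0 at an unadjusted p under 0.05.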
